A study of Sus scrofa with 297 samples.

Results

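The genes of sterol synthesis from squalene to cholesterol were followed in the livers of all pigs of the series. The pathway list held 9 enzymes, SQLE, LSS, CYP51A1, TM7SF2, MSMO1, NSDHL, EBP, SC5D and DHCR7, and its members were all probe sets whose single gene symbol in the array annotation was one of these names. 7 of the 9 genes were found, with 13 probe sets of 47722 on the array after the controls were left out, and all 13 were among the 52.2% of probe sets with enough signal to be tested. MSMO1 stood in the annotation under its older symbol SC4MOL. TM7SF2 and SC5D were not analysed here. The animals were performance-tested German Landrace pigs of slaughter age, with no treatment named, in a single group with 1 Affymetrix Snowball array per liver. The labels gave the loin eye area (the cross-section of the back muscle at the ribs), the fat area over it and a ratio for all but 8 pigs. In each pig with traits the ratio equalled fat area over loin eye area within 0.006, so that a higher ratio meant more fat per area of muscle. Values are log2 signals, and since probe sets differ in their response, signals were not compared between genes.

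Cholesterol is built from acetyl-CoA through mevalonate to squalene, and the enzymes described here carry squalene on to cholesterol. SQLE adds oxygen to squalene and is a control point of the late pathway, LSS closes the rings to lanosterol, CYP51A1 and MSMO1 with NSDHL take off methyl groups, EBP shifts a double bond and DHCR7 makes cholesterol in the last reduction of one of the branches. When sterols in the membrane of the endoplasmic reticulum run low, the transcription factor SREBP-2, the product of SREBF2, is set free and raises transcription of these genes, which makes the pathway a textbook example of genes under shared control. The liver is a main site of cholesterol synthesis in mammals.

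The arrays were alike in level, with array medians between 5.58 and 5.78, and the median correlation of an array with the others lay between 0.953 and 0.978. 9 hepatocyte marker genes had mean signals between 10.81 and 13.95, and 4 markers of bile duct cells between 5.86 and 7.65. Those of 6 Kupffer cell markers (6.19 to 11.49) and 4 blood markers (5.71 to 11.11) overlapped the hepatocyte range. Since probe sets differ in their response, these ranges do not give the share of a cell type. Animal numbers that shared their first 2 digits were treated as a number series, of which there were 9 with 9 to 94 pigs. The labels do not say what the numbers stand for. The pigs may be related, and p-values treat them as independent. In bulk liver RNA, fewer cells of a type and less RNA per cell cannot be told apart.

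SQLE, the first enzyme, had the widest spread between animals when each gene was taken by its brightest probe set. SQLE (probe set SNOWBALL_023165_s_st) ran from 7.46 over a median of 11.37 to 12.27, with a mean of 11.32 ± 0.51 (SD over all pigs). CYP51A1 (SNOWBALL_012601_st) ran from 7.12 over 10.59 to 11.47, and MSMO1 (SNOWBALL_011424_st) from 9.24 over 12.55 to 13.19. The lowest value of all 3 genes came from the same pig. Another pig, 2836, had the highest of all 3, which for MSMO1 it shared with pig 2916. Between the 5th and 95th percentile of pigs, SQLE differed 2.83-fold, DHCR7 2.54-fold, MSMO1 2.30-fold and CYP51A1 2.21-fold. The SD of SQLE exceeded that of 92.3% of tested probe sets.

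LSS, the cyclase, was narrower. Its single probe set (SNOWBALL_028678_st) ran from 8.91 over 9.87 to 10.52, a 1.89-fold difference between the 5th and 95th percentile, and its SD of 0.28 exceeded that of 57.0% of tested probe sets. NSDHL (SNOWBALL_001978_st, the brightest of 3) ran from 9.30 over 10.29 to 10.96. EBP (SNOWBALL_020986_s_st, the brightest of 4) ran from 9.96 over 11.18 to 11.92, and DHCR7 (SNOWBALL_027759_st, the brighter of 2) from 8.35 over 9.55 to 10.53. In none of these 4 genes did the lowest liver lie as far below the median as in SQLE, CYP51A1 or MSMO1. Unless another is named, a gene is described by its brightest probe set, and in the plots letters order the probe sets of a gene from the brightest, a, downwards.

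Probe sets of the same gene did not always move together. EBP a and EBP b (SNOWBALL_025835_st) had a Spearman rho of 0.96 over all livers, whereas EBP d (SNOWBALL_025697_st), with a mean signal of 6.60, reached 0.45 with EBP a. NSDHL a and NSDHL b (SNOWBALL_001976_st) had a rho of 0.89. NSDHL c (SNOWBALL_001977_st) had a rho of 0.33 with NSDHL a, below that of NSDHL a with LSS (0.62), although its own SD of 0.63 was the widest of the 13. The pair of DHCR7 probe sets had a rho of 0.69. The annotation gives each of these probe sets the same symbol, and which transcripts they read was not tested.

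Whether the enzymes of the pathway rose and fell together from liver to liver was asked with the rank correlations among the 7 genes. All 21 pairs had a rho of 0 or above, from 0.01 to 0.85 with a median of 0.28, and 20 of the 21 pairs passed an FDR of 1% when each gene was set against all tested probe sets. The pairs fell into 2 sets, which were read off the values and so are a description without a test. SQLE, CYP51A1 and MSMO1 correlated with each other at 0.69 to 0.81, and LSS, NSDHL, EBP and DHCR7 at 0.57 to 0.85. The 12 pairs across the sets lay between 0.01 and 0.40, with a median of 0.24. The sets do not follow the order of the reactions, since LSS acts between SQLE and CYP51A1.

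**Figure D1:**
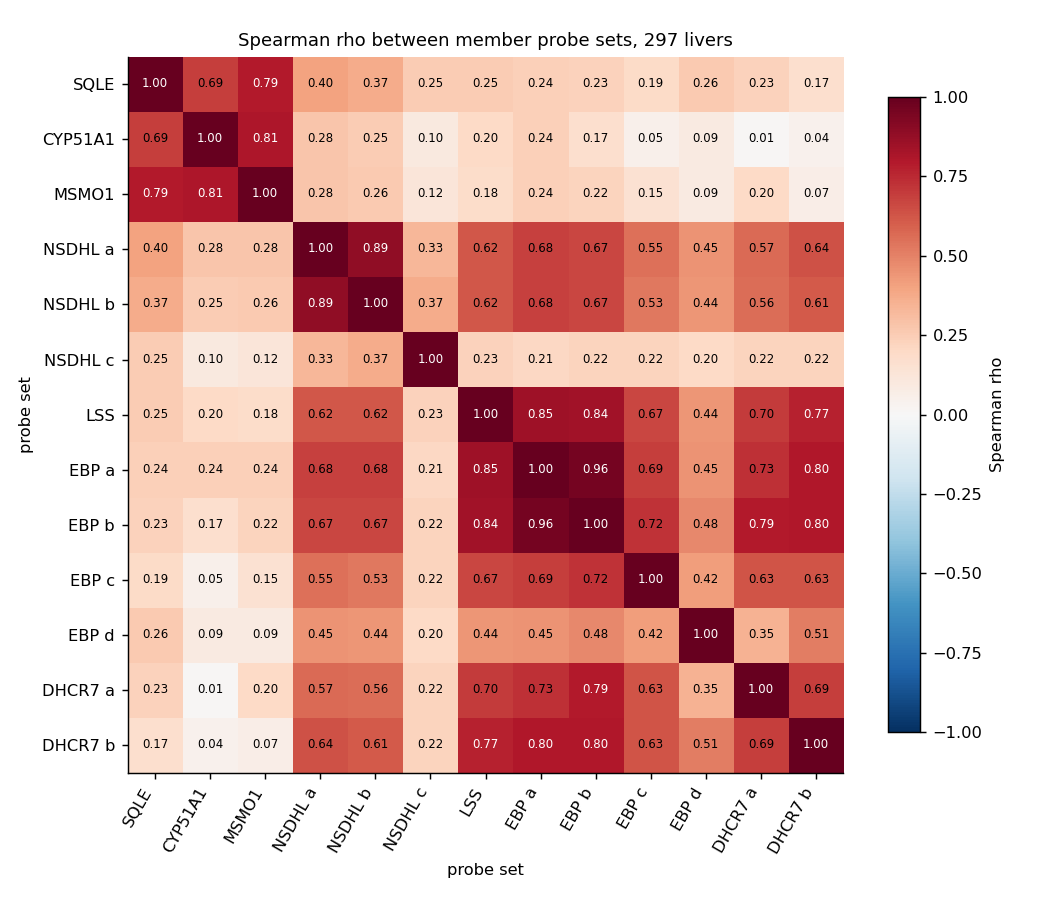
Spearman rho over all livers between the 13 member probe sets, each row and column being a probe set, with letters ordering the probe sets of a gene by falling mean signal. SQLE, CYP51A1 and MSMO1 form a block of 0.69 to 0.81, the main probe sets of LSS, NSDHL, EBP and DHCR7 one of 0.57 to 0.85, and NSDHL c stands apart from its own gene with 0.33.

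Among the first set, CYP51A1 and MSMO1, which act on consecutive methyl groups, were closest. Their rho was 0.81 and their Pearson r 0.86, each with p = 1e-05 by 100000 permutations, the smallest value these can give. Without the 2 livers farthest from the CYP51A1 median the values were 0.80 and 0.81. MSMO1 stood second among all tested probe sets by its rho with CYP51A1, behind HMGCS1, the synthase that makes HMG-CoA. SQLE and MSMO1 had a rho of 0.79 (r = 0.82, permutation p = 1e-05 for both) and SQLE and CYP51A1 0.69 (r = 0.77, permutation p = 1e-05 for both). In each of the 9 number series all 3 pairs were positive, between 0.63 and 0.92.

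In the second set LSS and EBP were closest, with a rho of 0.85 (r = 0.87, permutation p = 1e-05 for both), and without the 2 livers farthest from the LSS median r was 0.86. EBP was the probe set nearest to LSS among all tested. EBP and DHCR7, which act late in the pathway, had a rho of 0.73 (r = 0.74), LSS and DHCR7 0.70 (r = 0.72), and NSDHL and EBP, whose genes both lie on the X chromosome, 0.68 (r = 0.70). NSDHL was the loosest member of this set, with 0.62 to LSS and 0.57 to DHCR7, and also the member with the highest rho to the other set (0.40 with SQLE). In all 9 number series the 6 pairs of this set were positive, from 0.43 to 0.93.

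Across the sets, CYP51A1 and DHCR7 showed no detectable relation (rho = 0.01, permutation p = 0.90; r = 0.07, permutation p = 0.24), and this was the pair that did not pass the FDR. For SQLE and EBP the rho was 0.24 (permutation p = 6e-05) and Pearson's r 0.31 (permutation p = 1e-05), with an r of 0.27 without the 2 livers farthest from the SQLE median. Within single number series the median rho across the sets ran from -0.04 to 0.58. The pairs differed in this. SQLE and DHCR7, among the least steady, were positive in 5 of 9 series, with rho between -0.29 and 0.50. SQLE and NSDHL were positive in all 9, between 0.23 and 0.61. Scores made of the mean ranks of each set had a rho of 0.28 with each other. When the livers were cut by each score into 4 bins, 37 of the 75 livers in the lowest bin of the SQLE, CYP51A1 and MSMO1 score were in the lowest bin of the other score and 16 in its highest. Of the 74 livers in the highest bin of the first score, 22 were in the highest bin of the second and 6 in its lowest.

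**Figure D2:**
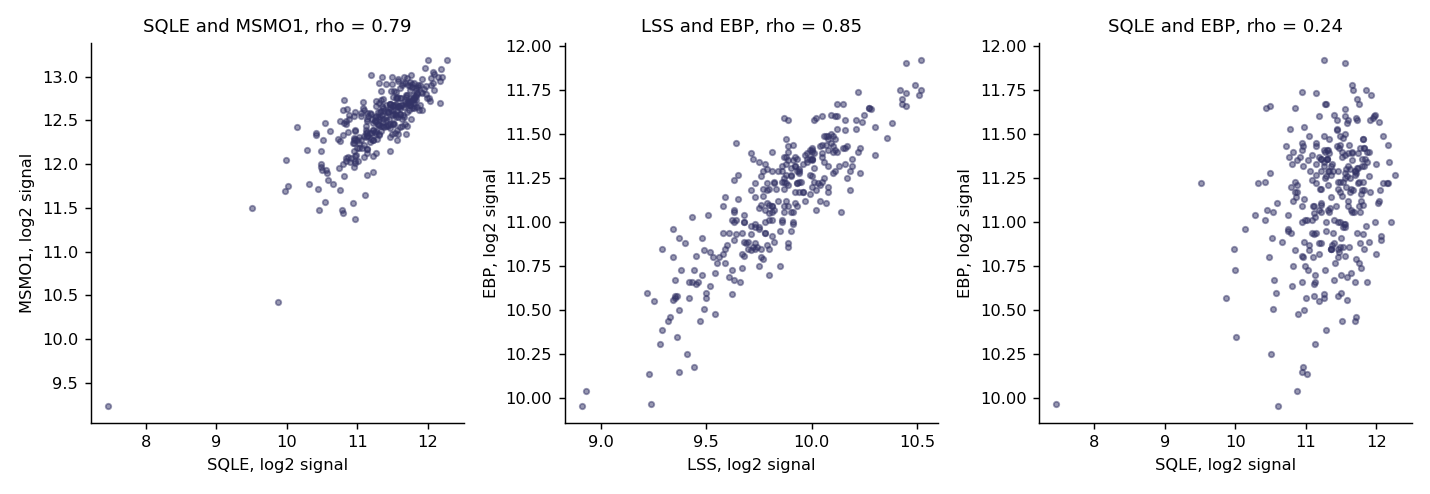
Log2 signals of SQLE and MSMO1, LSS and EBP, and SQLE and EBP, with a point for each liver. The first pair has a rho of 0.79 and the second of 0.85, whereas SQLE and EBP, which lie in different sets, have 0.24. The liver with an SQLE signal of 7.46 lies far to the left.

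Each member was also set against all tested probe sets, where a rho past an FDR of 1% in either direction was common. SQLE had such a rho with all 6 other members, against 38.0% of all tested probe sets. For NSDHL it was 6 against 39.1%, for EBP 6 against 42.3%, for LSS 6 against 47.7% and for MSMO1 6 against 66.5%. CYP51A1 had it with 5 of 6 against 79.5%, and DHCR7 with 5 of 6 against 67.8%. All calls between members were positive, and positive calls alone were made for 25.4% of all tested probe sets with CYP51A1 and 46.2% with DHCR7. The median rho of a member with the other 6 lay between 0.26 for CYP51A1 and MSMO1 and 0.48 for NSDHL, whereas the median over all tested probe sets was between -0.19 for CYP51A1 and 0.13 for DHCR7. Ranks showed the split more plainly than calls. From SQLE, MSMO1 was the 3rd and CYP51A1 the 8th nearest probe set, NSDHL the 190th, LSS the 2262nd, EBP the 2485th and DHCR7 the 2730th.

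Array-wide variation moved with the split. The first principal component of the tested probe sets, which held 27.8% of their variance, had a rho of 0.62 with CYP51A1, 0.51 with MSMO1 and 0.29 with SQLE, but -0.27 with NSDHL, -0.30 with EBP, -0.31 with LSS and -0.43 with DHCR7. With this component removed, the median rho was 0.72 within the first set, 0.64 within the second and 0.52 across the sets. With 5 components removed, the medians were 0.72, 0.46 and 0.41, and NSDHL then had 0.55 to 0.59 with SQLE, CYP51A1 and MSMO1 and 0.27 to 0.37 with LSS, EBP and DHCR7. The median correlation of an array with the other arrays had a rho of 0.41 with the score of the first set and 0.07 with that of the second. What the components stand for was not tested.

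Many of the genes nearest to the members make acetyl-CoA or sterol precursors. By rho with a score over all 7 members, the 10 nearest probe sets outside the pathway belonged to ACSS2 (0.85), which makes acetyl-CoA from acetate, ACAT2 (0.83), the thiolase at the head of the mevalonate route, FDPS (0.81) and FDFT1 (0.81 for both of its probe sets), which make farnesyl diphosphate and squalene, HMGCS1 (0.77), ACLY (0.73 for both of its probe sets), which makes acetyl-CoA from citrate, MMAB (0.73) and AACS (0.71), which activates acetoacetate. At the other end stood POLR1D and RNF152 (-0.55 each), APOA4 and the glucose-6-phosphatase gene G6PC (-0.51 each), and CPT1A (-0.49), which admits fatty acids to the mitochondrion for oxidation. The nearest gene outside the pathway differed between the sets. HMGCS1 was nearest to SQLE (0.84), CYP51A1 (0.83) and MSMO1 (0.88), whereas for LSS and DHCR7 it was TKT (0.75 and 0.81), a transketolase of the pentose phosphate pathway, for EBP ACSS2 (0.78) and for NSDHL FDPS (0.78).

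The route from acetyl-CoA to squalene was listed with 10 genes of which 8 were tested. Of these, 4 had a higher rho with the LSS set than with the SQLE set, and 3 with 5 components removed. MSMO1 and EBP, the genes with the highest median rho within their sets, were used to count calls. Of the 8 genes, 7 had a positive rho past the FDR with MSMO1, against 24.5% of all tested probe sets, and 7 with EBP, against 24.9%. None was negative, against 42.0% with MSMO1 and 17.4% with EBP. The median rho of the 8 was 0.40 with MSMO1 and 0.51 with EBP, against -0.11 and 0.06 over all tested probe sets. ACAT2 followed both scores, with 0.76 for the SQLE set and 0.59 for the LSS set, and FDFT1, the squalene synthase, had 0.69 and 0.62. FDPS had 0.43 and 0.83. HMGCS1 leaned to the SQLE set (0.92 and 0.38). MVD, which makes isopentenyl diphosphate, had 0.19 and 0.62, but 0.55 and 0.42 with 5 components removed. The lowest with the score over all members were GGPS1 (0.07), which leads away from sterols, and PMVK (0.24), which phosphorylates phosphomevalonate.

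Most tested genes of fatty acid synthesis had a higher rho with the LSS set, as did most of all tested probe sets. Of 10 tested genes of 15 listed, 10 had a positive rho past the FDR with EBP, against 24.9% of all tested probe sets. With MSMO1 it was 8, against 24.5%. A higher rho with the LSS set than with the SQLE set was found for 9, against 67.7% of all tested probe sets. ACSS2 had 0.80 with the LSS set and 0.54 with the SQLE set, ACLY 0.61 and 0.55, and SCD, the desaturase that makes oleate, 0.65 and 0.40. The lowest with the score over all members were MLXIPL (0.28), which encodes the carbohydrate-responsive factor ChREBP, FADS2 (0.43) and ACACA (0.50). With 5 components removed 9 of 10 genes were higher with the LSS set, but not the same 9. ACLY turned to 0.40 with the LSS set and 0.68 with the SQLE set. GPAM went from 0.51 and 0.57 to 0.29 and 0.26. The median rho was then 0.32 with the LSS set and 0.19 with the SQLE set. The share of all tested probe sets was not computed in this setting.

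**Figure D3:**
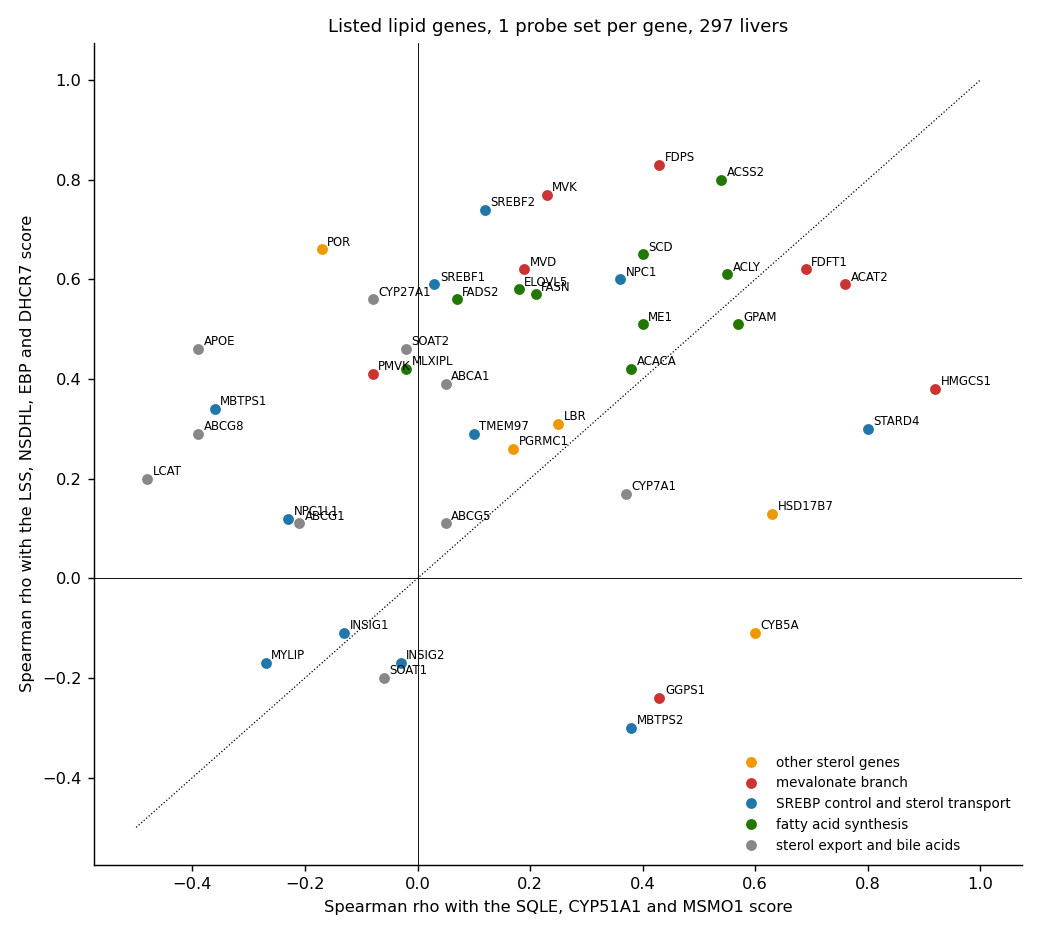
Spearman rho over all livers of listed lipid genes with the SQLE, CYP51A1 and MSMO1 score on the horizontal axis and the LSS, NSDHL, EBP and DHCR7 score on the vertical axis, 1 point per gene, coloured by list, with a dotted line of equal rho. HMGCS1 (0.92 and 0.38) and STARD4 (0.80 and 0.30) lie to the right, and 9 of 10 genes of fatty acid synthesis lie above the line. Of all tested probe sets, which are not drawn, 67.7% had a higher rho with the second score.

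Of 11 tested genes of SREBP control and sterol transport, from 14 listed, 8 had a higher rho with the LSS set than with the SQLE set, near the 67.7% of all tested probe sets, and 5 did so with 5 components removed. SREBF2 had a rho of 0.74 with the LSS set and 0.12 with the SQLE set. STARD4, which carries cholesterol between membranes, had 0.30 and 0.80. NPC1, which lets cholesterol out of lysosomes, had 0.60 and 0.36. With 5 components removed these differences changed, to 0.56 with the LSS set and 0.58 with the SQLE set for SREBF2, 0.34 and 0.55 for NPC1, and 0.36 and 0.58 for STARD4. INSIG1 and INSIG2, which hold SREBP proteins back, had -0.14 and -0.13 with the score over all members, and MYLIP, which marks the LDL receptor for breakdown, -0.26. With 5 components removed INSIG1 was positive, with 0.37 for the LSS set and 0.27 for the SQLE set. INSIG2 then had 0.09 and 0.07, and MYLIP -0.07 and 0.00. In this group 3 of 11 had a positive and 4 a negative rho past the FDR with MSMO1, near the 24.5% and 42.0% of all tested probe sets. With EBP 6 had a positive and 2 a negative one, against 24.9% and 17.4%. The median rho of the group was 0.06 with MSMO1 and 0.24 with EBP.

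Of further genes of sterol metabolism, 5 of 11 listed were tested. With MSMO1, 4 had a positive and 1 a negative rho past the FDR, against 24.5% and 42.0% of all tested probe sets. With EBP, 3 had a positive one, against 24.9%. HSD17B7, which reduces a keto group in the removal of the methyl groups, followed the SQLE set (0.63, against 0.13 for the LSS set), as did CYB5A, an electron donor (0.60, against -0.11). POR, which passes electrons to CYP51A1 and SQLE, followed the LSS set instead (0.66, against -0.17 for the SQLE set). With 5 components removed the values with the SQLE set were 0.60 for HSD17B7 and -0.03 for CYB5A, and that of POR with the LSS set was 0.18. LBR had 0.25 and 0.31 with the SQLE and LSS sets and PGRMC1 0.17 and 0.26.

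Of 10 tested genes of sterol export and bile acid synthesis, from 11 listed, 7 had a positive rho past the FDR with EBP and none a negative one, against 24.9% and 17.4% of all tested probe sets. With MSMO1, 1 was positive and 4 were negative, against 24.5% and 42.0%. CYP27A1, a hydroxylase of the acidic route to bile acids, had 0.56 with the LSS set and -0.08 with the SQLE set, whereas CYP7A1, the rate-limiting enzyme of bile acid synthesis, had 0.17 and 0.37, and SOAT2, which esterifies cholesterol, 0.46 and -0.02. The lowest with the score over all members were SOAT1 (-0.17), LCAT (-0.13) and ABCG1 (-0.04). With 5 components removed the median rho of the list was 0.11 with the LSS set and -0.06 with the SQLE set. As a score over its genes, the list had 0.56 with the LSS set and -0.25 with the SQLE set in the values as deposited. Scores of marker lists had 0.40 with the LSS set and -0.04 with the SQLE set for hepatocyte genes. For bile duct, Kupffer, stellate, endothelial, T cell, blood, muscle and fat cell genes they lay between -0.34 and 0.26 with either set. Their part in the split was not tested.

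A few livers had very low transcript of the first set. Pig 2598 had an SQLE signal of 7.46, which was 15.0-fold below the median of all pigs. Its CYP51A1 signal of 7.12 was 11.1-fold and its MSMO1 signal of 9.24 9.9-fold below the median, and HMGCS1 was at 5.96, near the array medians of 5.58 to 5.78, against a median of 10.65. In the same liver DHCR7 (8.35) and EBP (9.97) were 2.3-fold and LSS (9.24) and NSDHL (9.67) 1.5-fold below their medians, the lowest, second, 5th and 9th lowest of all pigs. Pig 2594 was second lowest in CYP51A1 (8.97) and MSMO1 (10.42), with an SQLE signal of 9.87 and DHCR7 at 8.59. Pig 2606 had an SQLE signal of 9.51 and CYP51A1 at 9.24, but its LSS (10.03), EBP (11.22) and DHCR7 (9.88) lay above the medians. The arrays of these 3 pigs were the 12th, 24th and 3rd lowest in their median correlation with the others. The median rho over all 21 pairs was 0.28 with and without these 3 pigs.

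**Figure D4:**
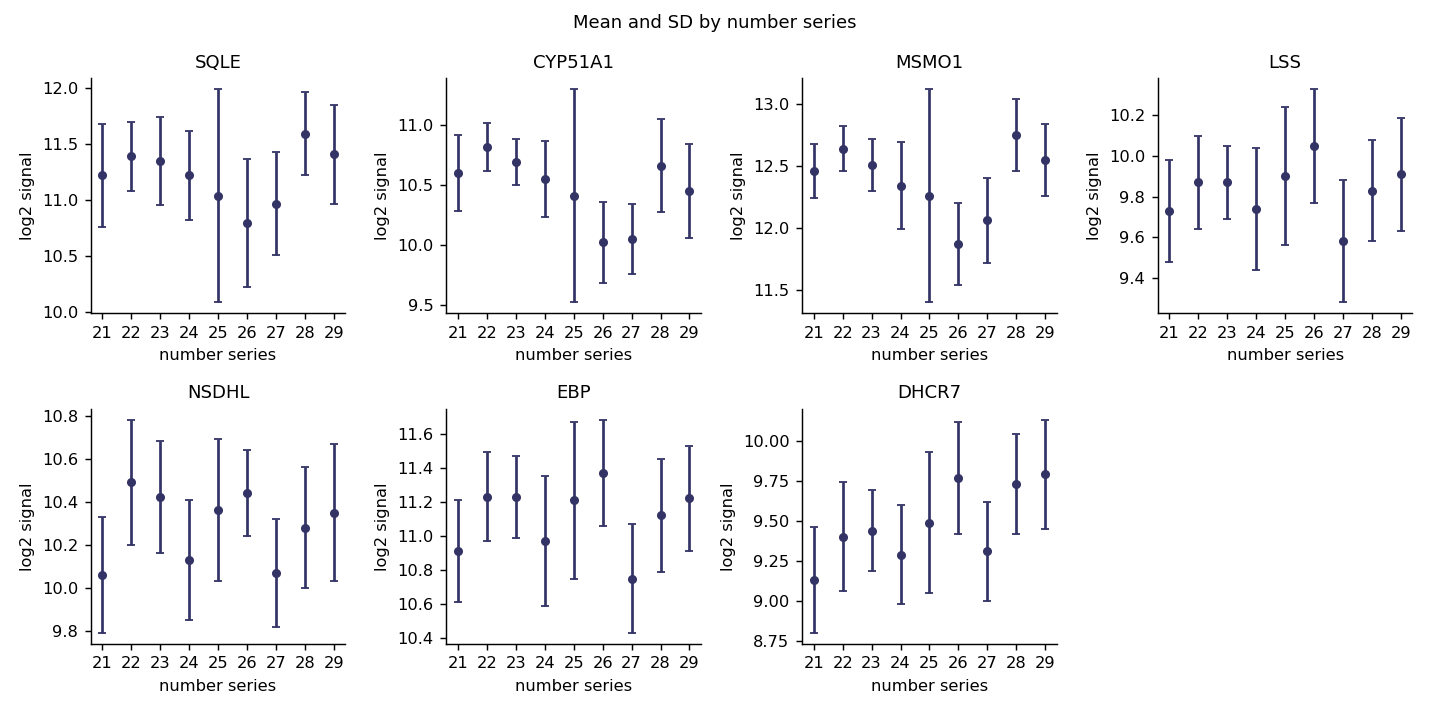
Mean log2 signal with SD (bars) of 7 genes in 9 number series, with number series on the horizontal axis. SQLE, CYP51A1 and MSMO1 are lowest in series 26, where LSS and EBP are highest, and DHCR7 runs between 9.13 in series 21 and 9.79 in series 29. The wide bars in series 25 for SQLE, CYP51A1 and MSMO1 hold pigs 2594 and 2598.

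The levels differed between number series, as did those of most genes. By limma's F test 12 of 13 member probe sets passed an FDR of 1%, against 88.0% of all tested probe sets, so that the count stood near the background. The probe set that did not pass was EBP d (adjusted p = 0.41). The size of the difference set DHCR7 apart, since its F of 19.0 exceeded that of 95.4% of tested probe sets and 35.1% of its rank variance lay between series, against a median of 14.5% over all tested probe sets. MSMO1 followed with 29% and CYP51A1 with 23.5%, and LSS was lowest with 10.4%. DHCR7 averaged 9.13 ± 0.33 in series 21 (SD, n = 29), 9.40 ± 0.34 in series 22 (n = 19), 9.49 ± 0.44 in series 25 (n = 21), 9.31 ± 0.31 in series 27 (n = 20) and 9.79 ± 0.34 in series 29 (n = 94). Its second probe set had an F of 5.75, larger than that of 44.4% of tested probe sets.

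Series 26, which held 9 pigs, was the lowest for all 3 genes of the first set and the highest for 2 of 4 genes of the second. MSMO1 averaged 11.87 ± 0.33 there, the lowest of all series, against 12.75 ± 0.29 in series 28, the highest. SQLE (10.80 ± 0.57) and CYP51A1 (10.02 ± 0.34) were also at their lowest, whereas LSS (10.05 ± 0.28) and EBP (11.37 ± 0.31) were at their highest. NSDHL was highest in series 22 (10.49, against 10.44 in series 26) and DHCR7 in series 29 (9.79, against 9.77 in series 26). In series 27 all 7 genes were among their 3 lowest series, with 10.05 ± 0.29 for CYP51A1, 9.58 ± 0.30 for LSS and 10.75 ± 0.32 for EBP (SD, n = 20). The difference between single series was not tested.

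The pathway was then set against body composition. No member probe set passed an FDR of 1% with loin eye area, fat area or the ratio, where 0.823%, 0.329% and 0.189% of all tested probe sets passed. At an unadjusted p under 0.05 by Spearman, 2 of 13 passed with loin eye area, 5 with fat area and 7 with the ratio. Of these, 1, 5 and 6 had a positive rho. The shares of all tested probe sets were 21.8%, 11.1% and 8.62%. By Pearson 1, 3 and 6 passed, of which 0, 2 and 5 were positive, against 27.9%, 11.4% and 8.21% of all tested probe sets. Of the 13 member probe sets, EBP a and LSS had the highest rho with fat area, and DHCR7 b had 0.13. For EBP a the rho with fat area was 0.20 (permutation p = 5e-04, adjusted p = 0.054) and Pearson's r 0.13 (permutation p = 0.023), or 0.21 and 0.14 without the 2 pigs farthest from the median fat area. For LSS the rho was 0.18 (permutation p = 0.0021, adjusted p = 0.097) and Pearson's r 0.14 (permutation p = 0.018). SQLE had 0.03, MSMO1 0.08 and CYP51A1 0.10, with adjusted p between 0.53 and 0.91. In the second set DHCR7 a also had 0.10 (adjusted p = 0.52), and the 3 probe sets of NSDHL lay between -0.10 and 0.03. Over 5 bins of fat area EBP averaged 11.06 ± 0.38 in the pigs of 2.4 to 9.5 cm2 (SD, n = 58) and 11.23 ± 0.32 in those of 18.3 to 30.0 cm2 (n = 58), so that the groups overlapped widely. For LSS the same bins gave 9.79 ± 0.31 and 9.94 ± 0.25.

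With ranks centred within number series EBP a had a rho of 0.26 (adjusted p = 0.0031) and EBP b 0.24 (adjusted p = 0.0088) with fat area, and both passed the FDR, as did 0.574% of all tested probe sets. EBP c (0.14, adjusted p = 0.29) and EBP d (0.16, adjusted p = 0.18) did not pass. EBP a was positive with fat area in all 9 series, from 0.16 to 0.73, and with the ratio it had 0.25 within series (adjusted p = 0.0055, where 0.522% of all tested probe sets passed). LSS was positive with fat area in all 9 series as well, from 0.06 to 0.70, with 0.22 and an adjusted p of 0.026 within series, and DHCR7 a in 8 of 9, with 0.22 and 0.023. A score of 7 X-linked genes that escape inactivation moved with both. Its rho was -0.31 with fat area, -0.35 with the ratio and 0.25 with loin eye area, and -0.39 with EBP, -0.38 with LSS, -0.35 with DHCR7 and -0.20 with NSDHL, against 0.02 with SQLE, 0.06 with MSMO1 and 0.13 with CYP51A1. With this score as a covariate EBP a had a rho of 0.09 (adjusted p = 0.26) and LSS of 0.07 (adjusted p = 0.39) with fat area, below CYP51A1 at 0.16 (adjusted p = 0.041) and MSMO1 at 0.10 (adjusted p = 0.19). No member probe set passed the FDR of 1% in this setting, against 2.97% of all tested probe sets. With number series and the score together EBP a had 0.14 (adjusted p = 0.26) and LSS 0.09 (adjusted p = 0.43). No member probe set passed there either, against 0.00803% of all tested probe sets. Of the 7 genes, KDM6A, EIF2S3, DDX3X, ZFX and USP9X had a rho between -0.47 and -0.36 with EBP, whereas UBA1 had 0.47 and KDM5C 0.12. The sex of the animals was not used here, and the part of the score in these relations was not tested.

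**Figure D5:**
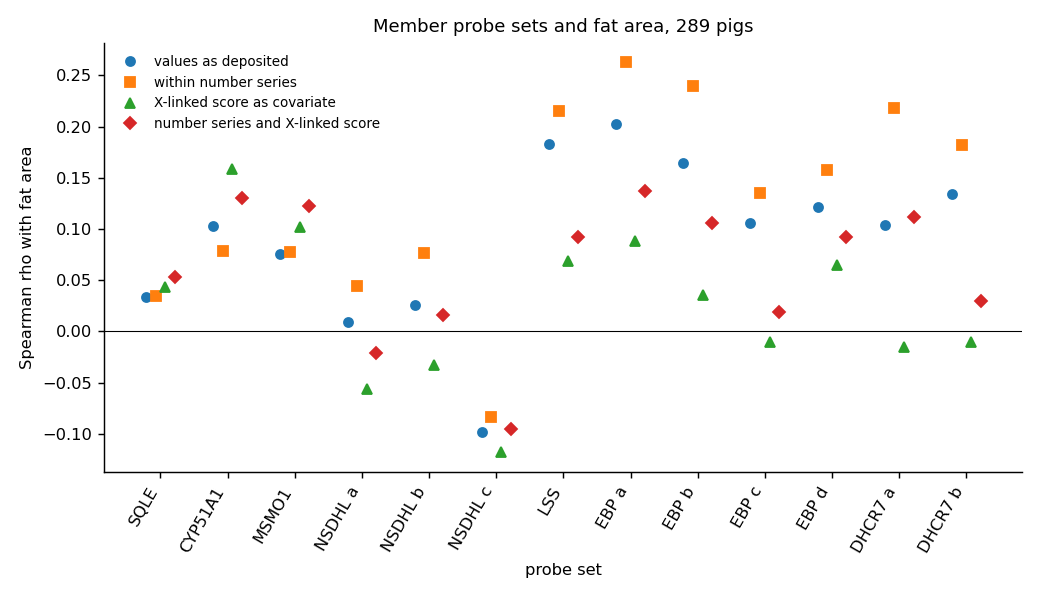
Spearman rho with fat area over the pigs with traits for the 13 member probe sets (horizontal axis), as deposited, within number series, with the X-linked score as a covariate, and with both. EBP a has 0.20, 0.26, 0.09 and 0.14 in that order, and CYP51A1 has 0.10, 0.08, 0.16 and 0.13, so that CYP51A1 lies below EBP a in the settings without the X-linked score and above it with the score alone.

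For DHCR7 a the rho with loin eye area was -0.16 (permutation p = 0.0065, adjusted p = 0.083) and Pearson's r -0.19 (permutation p = 0.0015). Its rho was -0.17 within number series, -0.08 with the X-linked score as a covariate and -0.22 (adjusted p = 0.013) with 5 components removed. The second probe set, DHCR7 b, had a rho of -0.055 (adjusted p = 0.60), and -0.147 (adjusted p = 0.15) with 5 components removed. CYP51A1 had 0.004 and MSMO1 -0.04 with loin eye area as deposited, but -0.20 (adjusted p = 0.029) and -0.19 (adjusted p = 0.034) with number series and the score together. NSDHL c, the probe set that stood apart from its gene, had 0.12 with loin eye area and -0.13 with the ratio (adjusted p = 0.20 and 0.51). With the ratio, EBP a had 0.18 (permutation p = 0.0017, adjusted p = 0.13), LSS 0.16 and DHCR7 a 0.14. Of the listed lipid genes, described by 1 probe set each, FASN had a positive rho with fat area past the FDR (0.26, adjusted p = 0.0044) and MLXIPL with loin eye area (0.27, adjusted p = 0.0024), and these were chosen after their values were seen. None of the 8 tested genes of the mevalonate route passed with any of the 3 traits.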

How the data were processed

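The deposited values were log2 signals, made by the authors with the robust multichip average in Expression Console over all arrays, 1 per liver. The submitters' processing notes also name GCOS 1.1.1. Genome build and probe mapping were not needed. The 123 control probe sets were left out. The study kept probe sets by detection above background; here the same number, those with the highest 20th percentile of signal, was tested. Symbols came from the platform annotation. Spearman correlation with each trait was computed over the pigs with traits, and p-values of the t distribution were adjusted by Benjamini-Hochberg over all tested probe sets and called at an FDR of 1%. For members 100000 permutations (two-sided) were drawn for rho and r. Genes of the text were described by the probe set with the highest mean signal. Number series were tested with the F test of limma 3.58.1. Scores are means of standardised ranks. For each gene list the 3 highest and 3 lowest genes by rho with the member score were named, and for the score the 10 nearest and 5 farthest probe sets with a symbol. The correlation test was tested on simulated data. Members and lists were chosen with earlier results of these data known. The number of arrays limits the precision. Genotypes, sex, carcass weight and blood traits were not used here. No sequences were used here.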

Additional observations from a re-analysis of the deposited data

How the results depend on the processing

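The count of member probe sets called with loin eye area stayed at 0 under every alternative run. These were limma regression, Pearson's r, ranks centred within number series, 5 or 17 principal components removed and leaving out the 2 farthest pigs. Further ones were the X-linked score as covariate, all probe sets and the upper part of the probe sets by signal. The last were an FDR of 5% and the other area as covariate. Of all probe sets tested, between 0.0% (17 components removed) and 4.06% (FDR of 5%) were called with loin eye area. With fat area and with the ratio the member count was 2 and 1 with ranks centred within number series and 0 under the others. It was 0 again with number series and the X-linked score together, an alternative chosen after the data had been seen. Of all probe sets tested under the alternatives, 0.0% to 2.97% were called with fat area and 0.0% to 0.674% with the ratio. With 17 components removed no probe set at all was called with a trait, so the member counts there decide nothing. Of 452 values of single probe sets with a trait under an alternative, 53 had the opposite sign to the main value. The main rho of these was at most 0.165 in size, and no member probe set at all had been called with a trait in the main setting. The median rho between the members was 0.28 in the main setting and 0.59 with the first principal component removed, which was chosen after the data had been seen, and otherwise lay between 0.27 and 0.47. The cause was not tested. The median within LSS, NSDHL, EBP and DHCR7 was 0.69 and moved to 0.46 with 5 and with 17 components removed, and that within SQLE, CYP51A1 and MSMO1 was 0.79 and at least 0.70 under all alternatives. Counts between number series were 12 in all settings, including the Kruskal-Wallis test, both areas as covariates and the data without pigs 2594, 2598 and 2606. They stood against 76.3% (all probe sets) to 93.5% (FDR of 5%) of all probe sets tested. In the upper part by signal 12 members were tested, and in the other settings 13. Within single number series the median rho between the members ran from 0.04 to 0.64. No paired analysis was possible because all pigs form a single group.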
